A study of Mus musculus with 6 samples.

Results

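The 10 genes described here encode proteins that fold, unfold, and degrade other proteins inside mitochondria, and were measured in interscapular brown adipose tissue (iBAT), the heat-producing fat depot between the shoulder blades. They are the chaperones *Hspd1*, *Hspe1*, *Hspa9*, and *Trap1*, the proteases *Lonp1*, *Clpp*, *Afg3l2*, and *Yme1l1*, the unfoldase *Clpx*, and the membrane scaffold *Phb2*. They were found on the array by the RefSeq accession of each probe. All 10 genes were found, with 13 of the 39429 probes. Of them, 9 passed the filter on dim probes, beside 19011 gene symbols that passed it in all. *Yme1l1* did not pass.

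RNA of iBAT from male C57BL/6 mice labeled 16 weeks of age was measured on 6 arrays of 1 dye, 3 labeled control and 3 labeled *ob/ob*. *ob/ob* mice lack functional leptin, the satiety hormone of fat cells, and become obese and diabetic. The control label gives no genotype beyond that word, the labels name no treatment, and they do not say whether the tissue of several mice was pooled, so the p values below measure only the spread between these 6 samples. The comparison asked which transcripts differ between the iBAT of obese and control mice.

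Nearly all mitochondrial proteins are made in the cytosol, enter the organelle unfolded, and must then be folded, assembled, or removed. HSPA9 pulls them in, the HSPD1/HSPE1 chamber folds them in the matrix, and the proteases LONP1, CLPXP, AFG3L2, and YME1L1 degrade those that are damaged or in surplus. Brown adipocytes are packed with mitochondria, and the genes of this machinery are also targets of the mitochondrial unfolded protein response, through which mitochondria call for more chaperones and proteases.

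*Hspd1* and *Hspe1*, which encode the chamber and its lid, lie head to head in the genome and share a promoter. Promoter windows of 8 of the 10 genes were taken from RefSeq (GRCm38.p6). The 215 bases between the *Hspe1* start and the nearer *Hspd1* start, chr1:55087933-55088147 on the plus strand, are shown because both genes are read outward from them. A further *Hspd1* start lies 95 bases beyond the *Hspe1* start. Capitals mark overlapping matches to the letters of a heat shock element (GAANNTTC or TTCNNGAA), the sequence bound by heat shock factors.

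Hspd1/Hspe1: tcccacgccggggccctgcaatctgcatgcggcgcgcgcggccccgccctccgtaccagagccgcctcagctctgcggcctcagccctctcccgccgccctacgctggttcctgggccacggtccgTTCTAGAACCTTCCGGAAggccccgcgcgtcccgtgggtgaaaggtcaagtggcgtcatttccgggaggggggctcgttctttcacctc

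The matches begin at −89, −84, and −79 from the *Hspe1* start. Of 32851 mouse promoter windows of the same length (250 bases before to 50 after a start), 15.1% hold these letters. Among the genes used here, *Clpp* also had a match, 34 bases after its start.

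The promoters of *Lonp1* and *Trap1* are shown because these genes gave the largest difference in value and the least overlap between groups, respectively. The 250 bases before the *Lonp1* start, chr17:56626904-56627153 on the minus strand, hold an E-box (CACGTG, capitals), which 7.15% of all windows hold. The 250 bases before the *Trap1* start, chr16:4077811-4078060 on the minus strand, hold a cAMP response element (TGACGTCA, capitals), present in 1.79% of windows. Both motifs read the same on either strand.

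Lonp1: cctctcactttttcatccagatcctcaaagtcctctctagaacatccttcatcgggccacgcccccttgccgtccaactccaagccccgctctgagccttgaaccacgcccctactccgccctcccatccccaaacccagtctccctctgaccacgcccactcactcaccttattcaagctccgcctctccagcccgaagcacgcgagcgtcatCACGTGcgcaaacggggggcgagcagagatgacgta

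Trap1: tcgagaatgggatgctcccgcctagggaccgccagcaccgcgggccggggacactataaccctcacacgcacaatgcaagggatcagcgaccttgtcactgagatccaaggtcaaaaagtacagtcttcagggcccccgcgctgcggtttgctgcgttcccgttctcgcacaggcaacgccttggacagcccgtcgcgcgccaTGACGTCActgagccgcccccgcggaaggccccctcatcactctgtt

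The E-box begins at −36 from the *Lonp1* start and the cAMP response element at −47 from the *Trap1* start. An E-box also lies at −80 from the further *Hspd1* start. The C/EBP-ATF composite element (TGATGNAA), known from stress response genes, and the estrogen-related receptor element (TCAAGGTCA) occurred in 0 of the 8 genes and in 3.97% and 0.423% of all windows. Both strands were searched. A match says that the letters are there, not that a factor binds.

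Of the 6 arrays, 2 stood apart from their labels, and this touches every result below. Across probes, control 1 and control 2 had a Spearman correlation of 0.964, and *ob/ob* 1 and *ob/ob* 2 of 0.967. Control 3 was nearest to *ob/ob* 2 (0.944) and *ob/ob* 3 to control 1 (0.858). The 75th percentile of the raw signal was lowest in control 3, at 96.6, and highest in control 1, at 292, and 83.5% to 89.9% of spots lay well above background. The labels were kept as given, and results are also given without both arrays.

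Values below are log2 signals after quantile normalization, listed for control 1, 2, and 3 and then *ob/ob* 1, 2, and 3. Differences are *ob/ob* minus control, with the standard error (SE) of the limma fit over all 35448 probes tested and p values adjusted over all of them. A gene with several probes is given by its brightest. Levels of different genes come from different probes and are not set against each other.

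No gene of the machinery passed the test between groups. None of the 9 tested genes passed an adjusted limma p of 0.05, as was true of all 19011 genes (0%), and none had an unadjusted limma p under 0.05, which 1.69% of all genes had with a lower value and 2.04% with a higher value in *ob/ob* iBAT. In value, 4 genes were higher and 5 lower, with a median difference of −0.20, beside −0.086 over all genes tested. Leaving out 1 array moved this median between −0.051 (without control 1) and −0.61 (without control 3), with −0.43 without *ob/ob* 3, and it was −1.36 without both control 3 and *ob/ob* 3. The intervals were wide, so a difference of 1 log2 unit in either direction lies within those of *Hspd1*, *Hspa9*, *Lonp1*, *Clpx*, and *Afg3l2*.

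**Figure D1:**
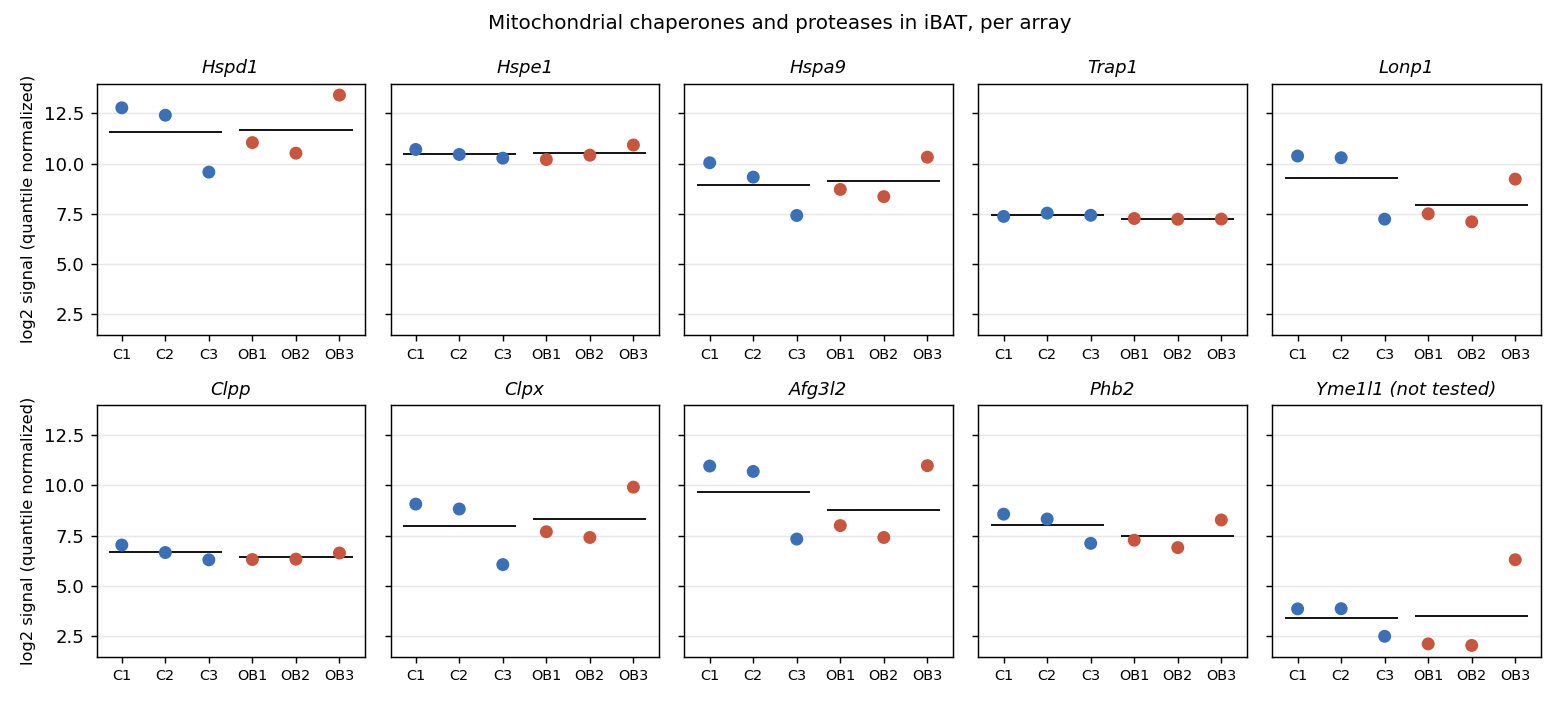
Log2 signal (quantile normalized) of the 10 genes on each array. Points are arrays (C, control in blue; OB, *ob/ob* in red) and black lines are group means. In 8 of the 9 tested genes, C1, C2, and OB3 are the highest arrays, and only *Trap1* has every *ob/ob* array below every control array.

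*Hspd1*, the chaperonin of the matrix, read 12.78, 12.41, and 9.58 in the controls and 11.05, 10.52, and 13.41 in *ob/ob* iBAT. Control 3 was the lowest array and *ob/ob* 3 the highest. The groups overlapped, and the 6 arrays spanned 3.83 log2 units. The means were 11.59 ± 1.75 and 11.66 ± 1.54 (SD, n = 3 each). The difference was 0.07 (SE 1.11, 95% interval −2.61 to 2.75, limma adjusted p = 1.0). It was −0.084 with arrays scaled to their 75th percentile. Relative to the mitochondrial content genes described below it was −0.062, a scaling that lowers the difference of every gene by 0.13.

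*Hspe1*, the lid of the chamber, read 10.71, 10.46, and 10.27 against 10.20, 10.42, and 10.93 on the brightest of 3 probes. All 6 arrays lay within 0.725 log2 units, and the groups overlapped. The difference was 0.04 (SE 0.35, limma adjusted p = 1.0). It was −0.094 relative to the mitochondrial content genes, by the same shift of every gene.

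The other *Hspe1* probes gave another spread. Probe A_55_P1953063 read 10.36, 10.08, and 7.62 in the controls and 9.12, 8.60, and 10.42 in *ob/ob* iBAT, a range of 2.80, and probe A_66_P124952 read 10.96, 10.60, and 9.94 against 10.08, 10.23, and 11.15, a range of 1.21. *ob/ob* 3 was the highest array on all 3 probes, and control 3 was the lowest on these 2 but not on the brightest. The difference between groups was 0.03 (SE 0.86) and −0.01 (SE 0.46), respectively. After each probe was centered on its own mean, the root mean square distance to *Hspd1* was 0.384 for A_55_P1953063, 0.928 for A_66_P124952, and 1.15 for the brightest probe. The RefSeq table names 6 pseudogenes after *Hspe1* and 5 after *Hspd1*, and whether a probe also binds their transcripts was not tested, so both values are uncertain.

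**Figure D2:**
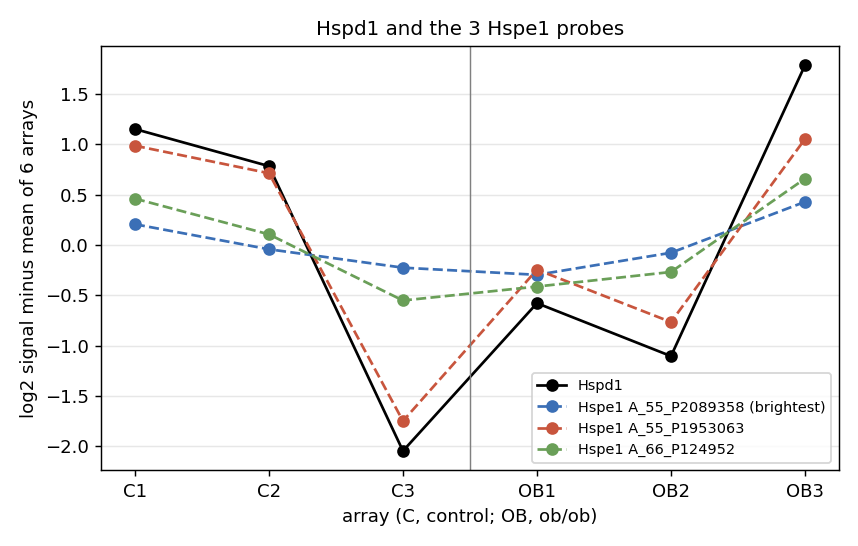
Log2 signal of *Hspd1* (black) and of the 3 *Hspe1* probes (dashed, colored), each minus its mean over the 6 arrays. C1 to C3 are control and OB1 to OB3 *ob/ob* arrays, and lines only join the points of a probe. The brightest *Hspe1* probe is nearly flat (range 0.725), whereas A_55_P1953063 (range 2.80) follows *Hspd1* (range 3.83).

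*Hspa9* encodes mortalin, the HSP70 of the matrix and the motor of protein import. It read 10.05, 9.33, and 7.42 in the controls and 8.72, 8.36, and 10.32 in *ob/ob* iBAT. The controls held the lowest array and *ob/ob* iBAT the highest. The difference was 0.20 (SE 0.84, limma adjusted p = 1.0), and it turned negative when either control 3 (−0.55) or *ob/ob* 3 (−0.39) was left out.

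*Trap1*, the HSP90 of mitochondria, was the gene with the tightest values. It read 7.37, 7.54, and 7.43 in the controls and 7.27, 7.23, and 7.24 in *ob/ob* iBAT. Every *ob/ob* array lay below every control array, with a gap of 0.104, as was the case for 4.22% of all genes, while 3.78% had every *ob/ob* array above. The means were 7.45 ± 0.084 and 7.25 ± 0.019 (SD, n = 3 each), and the difference of −0.20 (SE 0.29) is a 1.15-fold lower signal. By an exact 2-sided permutation test p was 0.10, the smallest that 3 against 3 arrays allow, and the limma adjusted p was 1.0.

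Among the proteases, *Lonp1* had the largest difference in value. LONP1 is the ATP-driven protease of the matrix that removes oxidized proteins and binds mitochondrial DNA. Its gene read 10.38, 10.29, and 7.24 in the controls and 7.51, 7.11, and 9.23 in *ob/ob* iBAT. Control 1 and control 2 lay above all other arrays, and control 3 lay among the *ob/ob* arrays. The means were 9.30 ± 1.79 and 7.95 ± 1.13 (SD, n = 3 each), and the difference was −1.36 (SE 1.01, 95% interval −3.80 to 1.09), a 2.56-fold lower signal that did not pass (limma adjusted p = 1.0).

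*Clpp*, the proteolytic core of CLPXP, read 7.03, 6.66, and 6.30 against 6.31, 6.33, and 6.64, with a difference of −0.24 (SE 0.34). *Clpx*, the ring that unfolds substrates and feeds them to CLPP, read 9.07, 8.83, and 6.06 against 7.69, 7.41, and 9.91, with a difference of 0.35 (SE 1.03). *Clpp* stayed within 0.736 log2 units on all arrays, whereas *Clpx* ranged over 3.86, the widest range of the 9 tested genes. The groups overlapped in both.

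The inner membrane holds AFG3L2, which forms the m-AAA protease with or without SPG7, and YME1L1, the i-AAA protease that faces the other side. *Afg3l2* read 10.96, 10.70, and 7.33 in the controls and 8.0, 7.41, and 10.98 in *ob/ob* iBAT, with almost the same range in both groups. The difference was −0.87 (SE 1.31, 95% interval −4.03 to 2.3, limma adjusted p = 1.0). *Yme1l1* read 3.86, 3.87, and 2.49 against 2.11, 2.04, and 6.30. Its probe passed the weaker flag of positive and significant signal on 100% of arrays, but was well above background on *ob/ob* 3 only. The other 5 values are therefore read as no more than a bound, and no fold change is given.

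*Phb2* encodes one of the prohibitins, which form rings in the inner membrane around the m-AAA protease. It read 8.57, 8.33, and 7.12 against 7.27, 6.91, and 8.28 on its brightest probe, with overlap and a difference of −0.52 (SE 0.56, limma adjusted p = 1.0). Its other probe read 6.52, 6.85, and 7.08 against 6.61, 6.92, and 6.41 and placed the arrays in another order, with a difference of −0.17 (SE 0.34).

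**Figure D3:**
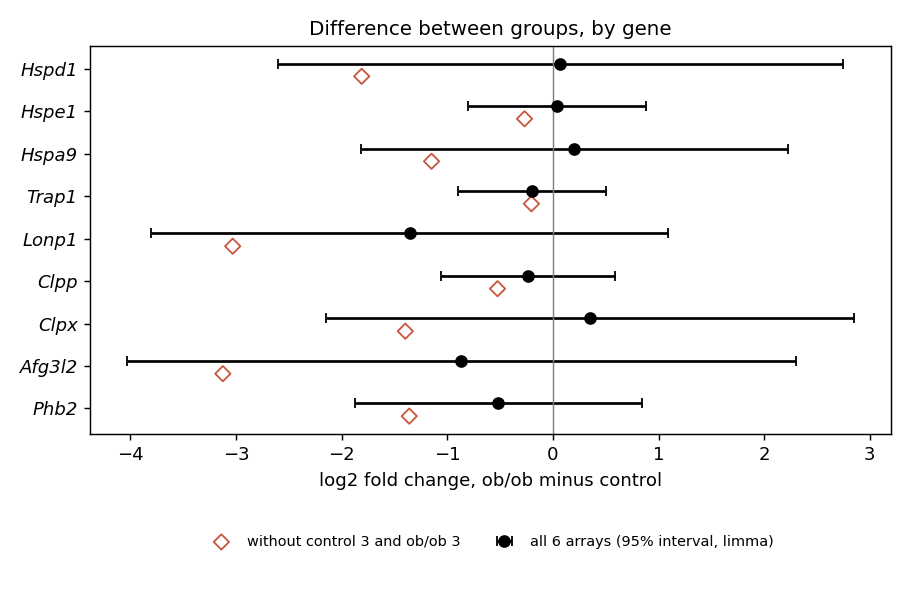
Difference in log2 signal (*ob/ob* minus control) of the 9 tested genes. Black points with bars are all 6 arrays with the 95% interval of the limma fit, and open red diamonds are the same difference without control 3 and *ob/ob* 3. All 9 intervals cross 0, and all 9 diamonds lie below it, from −0.20 (*Trap1*) to −3.12 (*Afg3l2*).

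Leaving out control 3 and *ob/ob* 3 moved most of the genes. The difference was then −3.12 for *Afg3l2*, −3.03 for *Lonp1*, −1.81 for *Hspd1*, −1.40 for *Clpx*, −1.36 for *Phb2*, and −1.15 for *Hspa9*. These 6 passed an adjusted limma p of 0.05, with 7.29e-05 for *Afg3l2* and 5.02e-05 for *Lonp1*, while *Clpp* (−0.52), *Hspe1* (−0.27), and *Trap1* (−0.20) did not. In the same fit 27% of all genes passed with a lower value, and every remaining *ob/ob* array was below every remaining control array in 36.6% of all genes and in all 9 tested genes of the machinery. The 2 arrays were chosen because they resemble the other group, so the choice itself sets much of this separation, and the counts are given as a description.

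Most genes of the machinery were high on the same arrays, which crossed the labels. Their median read 10.05, 9.33, and 7.33 on the control arrays and 7.69, 7.41, and 9.91 on the *ob/ob* arrays. Control 1, control 2, and *ob/ob* 3 were the 3 highest arrays in 8 of 9 genes, compared with 29.8% of all genes, with *Trap1* as the exception. This count rests on the brightest probe of each gene. The other *Hspe1* probes had the same 3 highest arrays, whereas the other *Phb2* probe was highest on control 3 and lowest on *ob/ob* 3. The range over the 6 arrays had a median of 2.90 log2 units in the 9 genes and of 1.80 over all genes. The same 3 arrays were highest in 12 of 12 genes of mitochondrial content (enzymes, channels, and respiratory subunits such as *Cs*, *Vdac1*, and *Uqcrc1*), in 9 of 11 mitochondrial import genes, and in 15 of 17 cytosolic chaperones. They were highest in 13 of 26 other genes of mitochondrial protein quality control and lowest in 6 of these, and highest in 4 of 7 regulators of the mitochondrial stress response and lowest in 2.

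Since mitochondrial content genes followed the same arrays, each gene was also expressed relative to the median of the 12 content genes on its array, a scaling chosen after the data were seen. That median read 11.33, 10.85, and 8.12 on the control arrays and 9.56, 9.36, and 11.78 on the *ob/ob* arrays. *Hspd1* then read 1.45, 1.56, and 1.46 against 1.49, 1.17, and 1.63. Its SD fell from 1.75 to 0.058 in the controls and from 1.54 to 0.24 in *ob/ob* iBAT, and the groups still overlapped.

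On this scale *Lonp1* and *Afg3l2* separated the groups. *Lonp1* read −0.95, −0.56, and −0.88 in the controls and −2.06, −2.25, and −2.55 in *ob/ob* iBAT, so that the highest *ob/ob* array lay below the lowest control. The difference was −1.49 (SE 0.83), with an exact permutation p of 0.10 and a limma adjusted p of 1.0. *Afg3l2* read −0.36, −0.16, and −0.79 against −1.56, −1.94, and −0.80, with a difference of −1.0 (SE 0.87) and a narrow gap between control 3 and *ob/ob* 3. *Clpx* lay on the other side, at −2.26, −2.03, and −2.06 against −1.87, −1.95, and −1.87, a difference of 0.22 (SE 0.82).

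Of all genes, 5.23% lay below without overlap on this scale, 1.04% above, and 0.615% had an unadjusted limma p under 0.05 with a lower value, which none of the 9 genes had. The scaling lowered the difference of every gene by the same 0.13, and so the median of all genes to −0.22. A change of sign by this scaling therefore says nothing about a single gene. The scaling did not narrow every gene: the SD of *Trap1* grew to 1.73 in the controls and 1.35 in *ob/ob* iBAT. *Trap1* then read −3.95, −3.32, and −0.69 against −2.29, −2.12, and −4.54, so that its groups overlapped on this scale. *Hspe1*, *Clpp*, and *Phb2* also spread further in the controls. The content genes were not uniform between groups, as *Uqcrc1* differed by −2.02 (SE 1.11) and *Cs* by 0.60 (SE 1.05) before this scaling. Of the 12, 8 were higher and 4 lower by value in *ob/ob* iBAT, with a median difference of 0.34. The shift of 0.13 is smaller because it compares the medians of the arrays, where the middle genes can differ from array to array. The narrow separations on this scale depend on that choice.

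**Figure D4:**
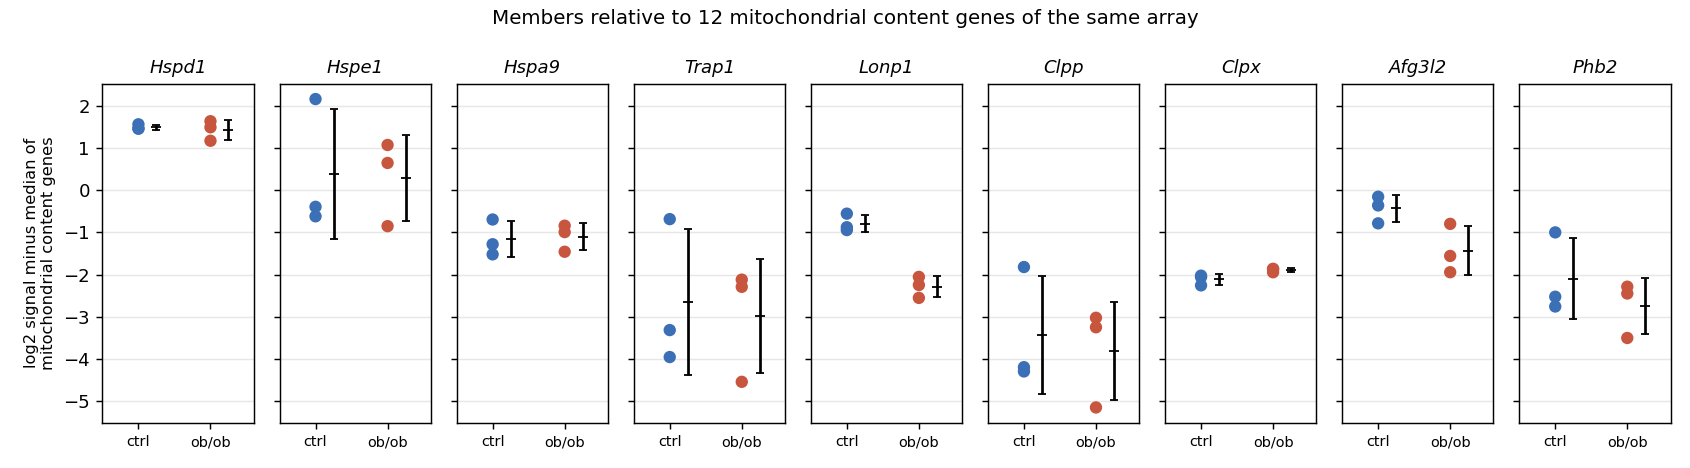
Log2 signal of the 9 tested genes minus the median log2 signal of 12 mitochondrial content genes on the same array. Points are arrays (control in blue, *ob/ob* in red), and bars are mean and SD of 3 arrays. *Lonp1* and *Afg3l2* have every *ob/ob* array below every control array (differences −1.49 and −1.0), and *Clpx* has every *ob/ob* array above (0.22).

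Partners in one complex did not always lie close in profile. Distance was taken as the root mean square difference between gene profiles over the 6 arrays, each centered on its mean, and is a description. Profiles were not scaled to a common range, so a narrow and a wide profile lie apart even where the same arrays are highest. *Clpp* (range 0.736) and *Clpx* (3.86) were both highest on control 1, control 2, and *ob/ob* 3, as were the brightest *Hspe1* probe (0.725) and *Hspd1* (3.83). *Spg7*, which encodes the other m-AAA subunit, was close to *Afg3l2* at 0.308, rank 190 of 19010 genes, and read 10.73, 10.17, and 6.11 against 7.46, 6.6, and 10.46. *Phb*, the second prohibitin, stood at rank 4214 for *Phb2*. *Hspe1* stood at rank 5996 for *Hspd1* by its brightest probe, at a distance of 1.15 that was 0.384 by probe A_55_P1953063, *Grpel1* (the nucleotide exchange factor of HSPA9) at rank 6121 for *Hspa9*, and *Clpx* at rank 14325 for *Clpp*. The median distance to all genes was 1.54 for *Hspd1* and 0.719 for *Clpp*, so ranks for different genes do not share a scale.

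Among the profiles nearest to *Hspd1* were *Psmb4*, a proteasome subunit (0.053), *Chchd1*, a mitochondrial ribosomal protein (0.081), *Ldhb*, a lactate dehydrogenase subunit (0.090), and *Ndufv2*, a complex I subunit (0.095). Within the machinery the closest pairs by this distance were *Hspd1* with *Clpx* (0.189), both with a wide range, and *Hspe1* with *Clpp* (0.201), both with a narrow range.

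Other genes of mitochondrial protein quality control were also without a call. Of 26 tested, 12 were higher and 14 lower by value in *ob/ob* iBAT, 0 had an unadjusted limma p under 0.05, and the median difference was −0.034. Among 10 further chaperones the values split 5 to 5. *Grpel2*, a second exchange factor for HSPA9, read 7.85, 7.84, and 7.13 against 6.58, 6.84, and 7.08, without overlap (−0.78, SE 0.36, limma adjusted p = 1.0). Of the 26, only *Grpel2* lay below without overlap, as did 4.22% of all genes, and it was named for that after its values were seen. *Dnaja3*, a cochaperone of HSPA9, differed by 0.60 (SE 0.93) and *Grpel1* by 0.55 (SE 0.40), while *Hscb*, of iron-sulfur cluster assembly, differed by −0.02 and *Clpb*, a disaggregase, by −0.42.

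Of 14 further proteases and peptidases, 7 were higher and 7 lower. *Spg7* differed by −0.83 (SE 1.51), *Afg3l1*, the mouse paralog of *Afg3l2*, by −0.09 (SE 0.57), *Oma1*, the stress-activated protease that cuts OPA1, by 0.04 (SE 0.33), and *Htra2*, of the intermembrane space, by −0.06 (SE 0.58). Both further scaffolds were lower by value, with differences of −0.98 (SE 0.99) for *Phb* and −0.29 (SE 0.34) for *Stoml2*.

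The regulators of the mitochondrial stress response also gave no call. Of 7 tested, 3 were higher and 4 lower, with 0 at an unadjusted limma p under 0.05. *Atf4*, the transcription factor of the integrated stress response, read 13.07, 12.37, and 9.94 against 10.70, 10.41, and 13.81 and differed by −0.15 (SE 1.18). *Atf5*, which is linked to the mitochondrial unfolded protein response, differed by −0.74 (SE 0.71), *Ddit3* (CHOP) by −0.05 (SE 0.42), and *Hsf1*, the main heat shock factor, by 0.04 (SE 0.32). The largest difference of the 7 was in another heat shock factor, *Hsf2*, at −1.30 (SE 0.63, limma adjusted p = 1.0), named after its values were seen. Of the 17 cytosolic chaperones tested, 8 were higher and 9 lower (median −0.092), and of the 11 import genes 6 were higher and 5 lower (median 0.23), with 0 at an unadjusted limma p under 0.05 in either list.

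Markers of cell types also differed between arrays. All 10 brown adipocyte markers were lower by value in *ob/ob* iBAT, and 4 of them had an unadjusted limma p under 0.05 (*Elovl3*, *Ppargc1a*, *Adrb3*, and *Zic1*). Over all genes tested, 1.69% had such a p with a lower value and 2.04% with a higher value. The log2 of the summed signal of the 10 markers was 12.83 to 16.65 in the controls and 12.11 to 13.62 in *ob/ob* iBAT. Control 3 gave the lowest control value, which lay within the *ob/ob* range and below *ob/ob* 3. By gene, the 4 named markers had every *ob/ob* array below every control array, and the others overlapped. Of all genes, 4.22% lay below in this way. *Adrb3* read 13.45, 12.90, and 9.34 in the controls against 7.19, 7.04, and 7.98. Of the 10 brown adipocyte markers, 9 were well above background on all arrays, with *Elovl3* on 3. Of 7 macrophage markers tested, 5 were higher by value, and *Lgals3* (4.13, SE 1.12) and *Trem2* (2.25, SE 0.61) had an unadjusted limma p under 0.05. Both lay above all controls on every *ob/ob* array, as 3.78% of all genes did. The 2 markers lower by value were *Itgam* (−1.43, SE 0.72) and *Adgre1* (−0.21, SE 0.46), named after their values were seen. Of 7 white adipocyte markers, 2 were higher and 5 lower, with *Retn* past the same threshold (−1.98, SE 0.76). *Lep*, the leptin gene, read 5.74, 4.57, and 5.30 in the controls against 6.68, 5.83, and 9.33, and was named after its values were seen. It lay above all controls on every *ob/ob* array, and *Retn* below, while the others of this list overlapped. Of 5 lymphocyte markers, 2 were higher and 3 lower, with *Ms4a1* past it (1.16, SE 0.36), and of 8 skeletal muscle markers 1 was higher and 7 lower, with *Mylpf* past it (1.19, SE 0.44). No marker of these lists passed an adjusted limma p of 0.05. The log2 summed signal of white adipocyte markers was 10.42 to 12.15 in the controls and 10.31 to 13.33 in *ob/ob* iBAT, and that of lymphocyte markers was 9.33 to 9.67 and 8.39 to 9.46. In bulk tissue, fewer brown adipocytes and less RNA per cell cannot be told apart.

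Skeletal muscle markers had the same 3 highest arrays as the chaperones and proteases in 7 of 8 genes. Their median read 9.76, 10.14, and 7.79 on the control arrays and 6.00, 6.18, and 10.95 on the *ob/ob* arrays, and their log2 summed signal was 11.89 to 15.31 and 9.61 to 15.67. Of the 8, 6 were well above background on all arrays, all but *Myh1* and *Mylpf*. The 3 arrays were also the highest in 4 of 5 endothelial and 3 of 5 erythrocyte markers, whose medians ran from 5.80 to 11.19 and from 6.95 to 12.29, and in 1 of 7 macrophage markers. The log2 summed signals were 12.65 to 13.25 in the controls and 11.80 to 12.63 in *ob/ob* iBAT for endothelial, 11.57 to 14.83 and 12.03 to 16.18 for erythrocyte, and 12.12 to 13.93 and 12.74 to 15.44 for macrophage markers. The part of these cell types in the values of the chaperones and proteases was not tested.

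Scans were shared by control 1, control 3, and *ob/ob* 1, and each other array had a scan of its own. Within the shared scan, *ob/ob* 1 minus the mean of both controls was −1.30 for *Lonp1*, −1.15 for *Afg3l2*, −0.57 for *Phb2*, −0.35 for *Clpp*, −0.29 for *Hspe1*, −0.13 for both *Hspd1* and *Trap1*, −0.016 for *Hspa9*, and 0.13 for *Clpx*. With 1 *ob/ob* array these are values with no test.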

How the data were processed

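Total RNA of iBAT was amplified, labeled with Cy3, and run on 1 Agilent mouse array per sample. Samples were grouped by their labels. For each array the authors deposited the spot intensity read by Agilent Feature Extraction (11.0.1.1), corrected for background within the array and not normalized between arrays, beside the uncorrected intensities and the flags. A table of log2 values, quantile normalized in GeneSpring, was deposited too; its column medians were 6.00 and its columns correlated at 0.997 or more with the quantile normalized scanner values.

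The log2 intensities were averaged per probe (43020 spots, 39429 probes, 104 left out for outlier flags, 0 saturated spots), and quantile normalized. Probes with at least 50% of their spots well above background on at least 3 of 6 arrays were kept (35448). Names came from RefSeq accessions (27234 of 28684 named, GRCm38.p6, names and promoter sequences only; the array annotation uses another build). Groups were compared with limma (3.58.1) in R (4.3.3), with Benjamini-Hochberg adjustment over all probes, and single genes also with an exact permutation test. Figures were drawn in Python (3.11.15) with matplotlib (3.10.9). The limma step was also run on simulated arrays, after the main fit. Their noise was independent between arrays and their added difference was larger than any given above for the tested genes. That run therefore does not speak to arrays that cross their labels. The number of arrays limits the precision.

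The genes and lists were chosen with earlier results of these data known. The rule for named genes took all 10 genes, binding partners and paralogs of them, genes of the fixed lists with an unadjusted p under 0.05, and the 5 profiles nearest to *Hspd1*, of which 1 is not reported here. The alternatives were 75th percentile scaling, the authors' values, normexp (offset 50, on the median spot signal), no detection filter, detection on all 6 arrays, the methods' t-test, an intensity trend with robust estimation, array weights, the replicate block, the scan block, leaving out each array or both control 3 and *ob/ob* 3, and the mean of a gene's probes. Scaling to 12 content genes was added after the data were seen. *Hspa9* and *Afg3l2* promoters were not used here.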

Additional observations from a re-analysis of the deposited data

Results flagged for a closer look

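*Yme1l1*, the i-AAA protease of the inner membrane, was left out of the comparison because its probe was well above background on 1 array. On that array, *ob/ob* 3, it read 6.30 on the log2 scale, above the highest control value of 3.87 and the other *ob/ob* values of 2.11 and 2.04, which are read as bounds.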

How the results depend on the processing

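Over 19 alternatives, *Trap1*, *Lonp1*, *Clpp*, *Afg3l2*, and *Phb2* were lower by value in *ob/ob* iBAT in each, from −3.03 to −0.82 for *Lonp1*. Not all of them could change a difference. The detection filters, the t-test, the intensity trend with robust estimation, and the replicate block alter only the error or the adjustment. The mean of a gene's probes could change only genes with several probes. The other 4 genes changed direction in some. The scan as a block rests on the shared scan alone, since each other array had its own scan. It gives *ob/ob* 1 minus the mean of control 1 and control 3, the same values as within that scan. *Hspd1* was −0.084 with 75th percentile scaling, −1.36 with array weights, −0.13 with the scan as a block, −1.81 without control 3 and *ob/ob* 3, and −0.062 relative to the content genes. *Hspe1* was −0.25, −0.29, −0.27, and −0.094 with array weights, the scan block, without both arrays, and relative to the content genes. The content scaling lowers every difference by the same 0.13. *Hspa9* was −0.61, −0.016, and −1.15 with array weights, the scan block, and without both arrays, and *Clpx* was −1.13 and −1.40 with array weights and without both. Leaving out 1 array at a time, *Hspd1* ran from −0.93 to 0.67, *Hspe1* from −0.17 to 0.20, *Hspa9* from −0.55 to 0.76, and *Clpx* from −0.61 to 0.90. All 4 turned negative without control 3 (−0.93, −0.064, −0.55, and −0.61) and without *ob/ob* 3 (−0.80, −0.17, −0.39, and −0.43). The cause was not tested.

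The median of the 26 other quality control genes (−0.034) was 0.014 in the authors' values and 7.9e-05 with normexp, and ran from −0.22 to 0.11 when 1 array was left out. Genes of the machinery with an unadjusted p under 0.05 numbered 0, but 1 by the methods' t-test (*Trap1*), 9 with array weights, 6 without both arrays, and 0 to 1 when 1 array was left out, with *Lonp1* called without control 3 (−2.39). At an adjusted p under 0.05 there were 0, but 9 with array weights and 6 without both arrays. The array weights did not converge, and that fit called 17855 of 19011 genes. Scaling to the 75th percentile moved the median of all genes from −0.086 to −0.30, beside a median of −0.20 for the 9 genes.

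With the replicate block there were 0 calls, the same as without. The median of the 9 genes was −0.20, which this balanced block cannot change. Replicate numbers are not paired by the labels, and deviations of arrays with the same number correlated at −0.78, −0.66, and −0.85. *Yme1l1* was not well above background on 5 arrays.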
